A study of Mus musculus with 2 samples.

Results

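Macrophage and microglia genes are 33 listed protein-coding genes, picked by symbol from the GENCODE M21 annotation of the mm10 mouse genome, of 21728 protein-coding genes counted here on chromosomes 1 to 19 and X. They hold the lineage regulators, receptors, complement and lysosomal proteins by which macrophages are commonly recognised. Their DNase-seq peaks were read in whole embryos of the B6NCrl strain at 11 day, healthy per the labels, with male and female embryos pooled. There was 1 group with 2 biological replicates, each with its own biosample entry and a donor entry in common, and no treatment, mutant or control. No label says that the replicates came from separate litters, so their spread may be partly technical.

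DNase-seq cuts chromatin with the enzyme DNase I and sequences the freed ends, so a peak marks DNA that was open in enough of the cells sampled. Embryonic macrophages arise first in the yolk sac, enter the embryo with the blood and seed its tissues, where those of the brain become microglia. Their fate depends on the transcription factor PU.1, made by Spi1, and on the growth factor receptor made by Csf1r. Many macrophage genes are known to have promoters poor in CpG, the dinucleotide that marks the promoters of most broadly used genes.

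Replicate 1 held 204697 peaks and replicate 2 held 231103. All but 1 peak were 150 bp wide, and each carried a score from 1 to 150, with medians of 45 and 50. The files hold no read counts, so sequencing depth is unknown. Among marker genes, 15 of 15 for embryonic tissues and 8 of 8 housekeeping genes had a promoter peak in both replicates, against 70.3% of all genes. Only 4 of these 15 and 1 of these 8 had CpG-poor promoters, by the low class defined below. The counts are therefore only a weak check of the label of a whole embryo.

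Of the 33 genes, 9 had a promoter peak in both replicates, which is 27.3%, against 70.3% of all protein-coding genes. A promoter peak here is one within 500 bp of any annotated transcription start site (TSS) of the gene. The 9 were Maf, Coro1a, Tlr2, Cd14, P2ry12, Cd68, Tlr4, Cd163 and Adgre1. Replicate 1 alone gave 9 members (27.3%), against 71.2% of all genes, and replicate 2 gave 13 (39.4%), against 72.1%. A promoter peak was thus rarer among the members than among genes at large in either replicate. The embryo is a mixture of tissues, and few macrophages and a weak opening in each macrophage cannot be told apart in it.

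Among the lineage regulators, only Maf had a promoter peak. Maf encodes a leucine zipper factor of macrophages that other embryonic tissues, the lens among them, also use. Its best promoter peak scored 135 in replicate 1 and 134 in replicate 2, in the top few percent of each list (percentiles 98.1 and 97.2), and it lay 62 bp upstream of the TSS. Maf held 4 promoter peaks in each replicate. Spi1 had none: its nearest peak ended 648 bp from a TSS in replicate 1 and 628 bp in replicate 2, with scores of 35 and 42. That peak sits just outside the 500 bp window, near an upstream start site and 12965 bp before the principal one.

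Of the receptors and adaptors, Tlr2, Cd14, Tlr4, P2ry12 and Adgre1 had promoter peaks in both replicates. Tlr2, a receptor for bacterial lipoproteins, had a peak in its first intron that scored 91 in replicate 1 and 94 in replicate 2. Cd14, which hands lipopolysaccharide to its receptor, scored 84 and 88 at a peak in its second exon, 393 bp from a TSS. These 2 genes had closely matching scores in the replicates. P2ry12, the ADP receptor used as a microglial marker, scored 62 in replicate 1 and 64 in replicate 2 at a peak across its TSS, with 3 promoter peaks in each. It lies within the body of Med12l, whose nearest TSS was 5714 bp away from that peak. Tlr4, the lipopolysaccharide receptor, scored 36 in replicate 1 and 47 in replicate 2 at its TSS. Adgre1, an adhesion receptor and a classical marker of mouse macrophages, had the lowest promoter scores, 29 and 19, which were percentiles 18.4 and 1.36 of their lists. The scores of Tlr4 and Adgre1 differed between the replicates by more than those of Cd14, Tlr2 and P2ry12.

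Of the phagocytic, lysosomal and cytoskeletal genes, Cd68, Cd163 and Coro1a had promoter peaks in both replicates. Cd68, a lysosomal membrane glycoprotein, scored 60 in replicate 1 and 68 in replicate 2 just upstream of its TSS. Coro1a, an actin regulator of blood cells, scored 108 and 120 at its principal TSS. A separate Coro1a peak, at an internal start site in exon 6, scored 104 and 109. Cd163, the scavenger receptor for haemoglobin bound to haptoglobin, scored 48 and 33, but that peak lay in exon 11 of the principal transcript, at the start of a shorter annotated transcript and 15975 bp from the principal TSS in replicate 2. With principal start sites alone, Cd163 drops out and 8 members remain, against 66.5% of all genes.

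By promoter score Maf came first, then Coro1a, Tlr2 and Cd14, each apart from the next in both replicates. P2ry12 and Cd68 followed and overlapped, as did Tlr4 and Cd163 after them, and Adgre1 was last. Over the 9 genes the median best score was 62 in replicate 1 and 68 in replicate 2. Over all genes with a promoter peak in both replicates it was 125 and 130. The best member peak stood at a median percentile of 70.2 and 69.8 of its list, against 96.0 and 96.3 for all such genes. Only Maf exceeded the median of all genes in both replicates. Hotspots, the wider regions deposited beside the peaks with a −log10 q from 1.3 to a ceiling of 100, covered the promoters of 9 members in replicate 1 (27.3%, against 71.4% of all genes) and 13 in replicate 2 (39.4%, against 72.4%). By the highest hotspot within 500 bp of any TSS, Maf, Coro1a, Tlr2, Cd14, P2ry12 and Cd68 were at the ceiling in both replicates. Adgre1 was at 2.19 and 1.85, Cd163 at 100 and 3.90, and Tlr4 at 2.29 and 100.

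**Figure D1:**
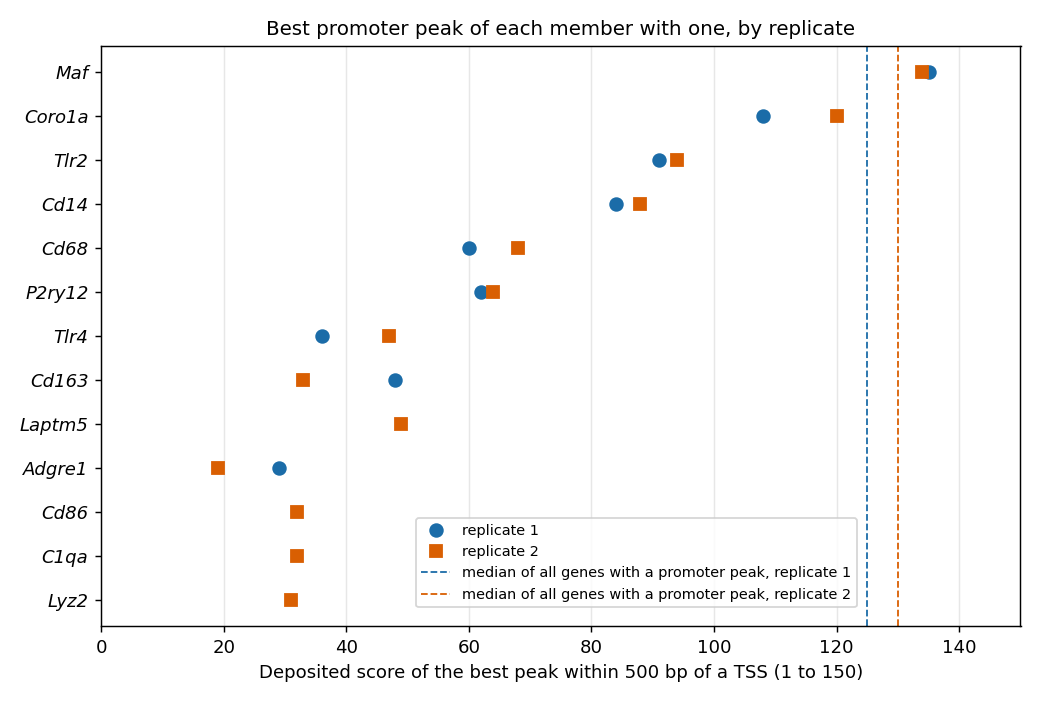
Deposited score (horizontal axis, 1 to 150) of the best peak within 500 bp of a TSS for the 13 members with one, in replicate 1 (circles) and replicate 2 (squares); dashed lines are the medians of all genes with a promoter peak in both replicates, 125 and 130. Only Maf lies right of both lines, and Laptm5, Cd86, C1qa and Lyz2 have a square only.

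The promoter stretches below give the letters of some strong and some weak promoter peaks. The best promoter peaks of Coro1a and Cd14, which also ranked high, are not printed. Each is the part of a promoter peak that no annotated exon covers, given 5′ to 3′ on the strand of the gene, with every CpG in capitals (mm10). The Maf stretch is chr8:115707856-115708005 (minus strand), that of Tlr2 chr3:83841316-83841465 (minus), that of Cd68 chr11:69666236-69666385 (minus), that of Tlr4 chr4:66827516-66827583 (plus), that of Adgre1 chr17:57358576-57358690 (plus) and that of Lyz2, from replicate 2, chr10:117282322-117282425 (minus).
Maf: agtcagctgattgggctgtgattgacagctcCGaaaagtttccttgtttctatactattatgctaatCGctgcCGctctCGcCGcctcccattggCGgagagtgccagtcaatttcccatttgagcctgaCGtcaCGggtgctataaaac
Tlr2: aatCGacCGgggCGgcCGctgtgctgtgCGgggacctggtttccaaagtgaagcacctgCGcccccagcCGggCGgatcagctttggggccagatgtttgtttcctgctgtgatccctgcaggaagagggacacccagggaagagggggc
Cd68: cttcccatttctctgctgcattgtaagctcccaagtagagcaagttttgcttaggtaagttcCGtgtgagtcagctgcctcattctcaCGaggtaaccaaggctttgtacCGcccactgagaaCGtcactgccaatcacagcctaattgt
Tlr4: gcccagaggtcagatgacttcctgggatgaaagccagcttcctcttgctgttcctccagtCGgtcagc
Adgre1: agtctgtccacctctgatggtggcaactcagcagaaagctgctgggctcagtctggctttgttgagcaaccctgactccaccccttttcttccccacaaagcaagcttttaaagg
Lyz2: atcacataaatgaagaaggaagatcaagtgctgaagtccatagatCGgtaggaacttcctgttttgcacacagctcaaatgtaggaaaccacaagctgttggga

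The Maf and Tlr2 stretches hold 8 CpGs each in 150 bases and that of Cd68 holds 4. The shorter stretches of Tlr4, with 68 bases, and of Lyz2, with 104, hold 1 each, and the 115 bases of Adgre1 hold 0. The whole Adgre1 peak of replicate 1 holds 1. Most members had CpG-poor promoters. The CpG observed-to-expected ratio, taken over 500 bp to either side of the 5′-most TSS, had a median of 0.214 in the members (range 0.098 to 0.840), against 0.558 in all genes. It was below 0.35, the low class, in 29 of 33 members, and in 7898 of the 21728 genes.

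Within the low class, 6 of 29 members had a promoter peak in both replicates (20.7%), against 27.4% of all low-class genes. The class is wide, and the members were not spread over it as other genes were. By deciles of the ratio over all genes, 1 of 9 members in decile 2 had such a peak, against 21.2% of genes. In decile 3 it was 2 of 13, against 35.9%, and in decile 4, which reaches 0.406, 4 of 7, against 58.2%. The lone member of decile 1 had none, against 8.97%. These counts are small, and whether CpG content accounts for the members' shortfall was not tested. In the intermediate class, from 0.35 to below 0.6, both members, Cd14 and Tlr2, had a promoter peak, against 84.9% of genes. In the high class Maf had one and Fcgr3 did not, against 98.6% of genes. Fcgr3, a receptor for the Fc part of IgG, had a ratio of 0.840 at its 5′-most TSS, and its nearest peaks were 1173 bp and 1110 bp from a TSS. Its principal TSS is a different one, further inside the gene.

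**Figure D2:**
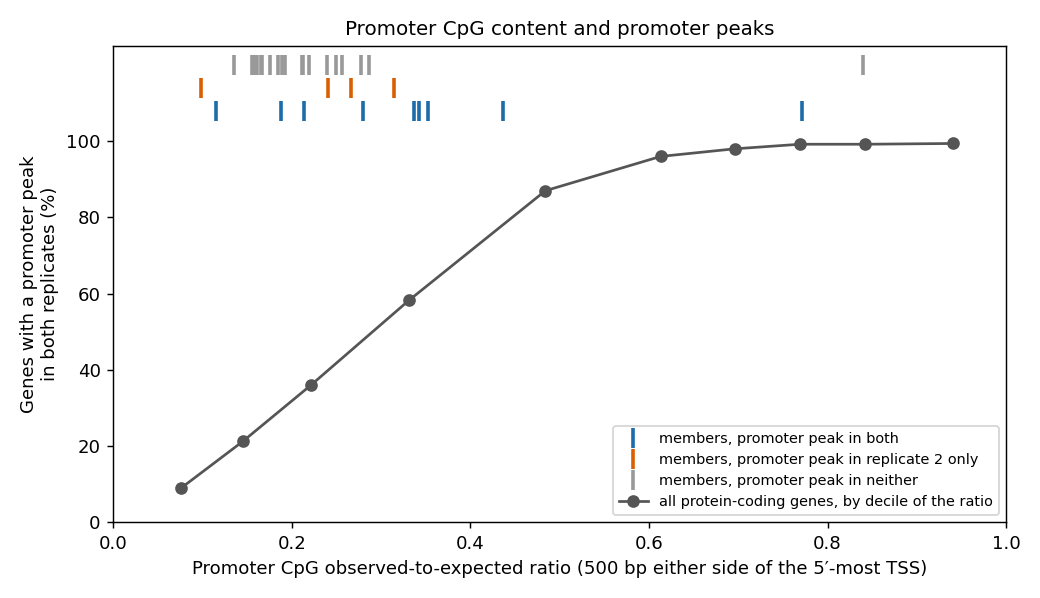
Members (ticks above the curve, by promoter call) and all protein-coding genes (points, deciles of the ratio) along the promoter CpG observed-to-expected ratio; the vertical axis gives the percentage of genes in a decile with a promoter peak in both replicates. Most members sit left of 0.35, where the curve lies between 8.97% and 58.2%, and the lone grey tick at the right is Fcgr3.

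A promoter peak appeared in replicate 2 only for C1qa, Cd86, Laptm5 and Lyz2, which is 12.1% of the members, against 1.79% of all genes. None appeared in replicate 1 only, where the share of all genes was 0.874%. Laptm5, a lysosomal membrane protein, scored 49 at its TSS in replicate 2. Lyz2, the lysozyme of macrophages, scored 31 at its TSS. Cd86, which costimulates T cells, scored 32 at 132 bp from a TSS. C1qa, a chain of the complement protein C1q, scored 32 at 493 bp, just inside the window. All 4 were below the replicate 2 median of 50, and their hotspots had −log10 q values of 1.59 for C1qa, 1.44 for Lyz2, 3.24 for Cd86 and 2.63 for Laptm5. Replicate 2 had the longer list, and its part in these calls was not tested.

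The other 20 members had a promoter peak in neither replicate. They include the lineage genes Csf1r and Spi1 and the fractalkine receptor Cx3cr1. They also include the activating adaptors Tyrobp and Fcer1g, the lipid receptor Trem2 that signals through Tyrobp, the inhibitory lectin Cd33, and the Fc receptors Fcgr1 and Fcgr3. The phosphatase Ptprc, found on all white blood cells, and the integrin chain Itgam had none. Among effector genes the C1q chains C1qb and C1qc, the mannose receptor Mrc1, the phosphatidylserine receptor Timd4, the lysozyme Lyz1, the pore-forming Mpeg1, the oxidase subunit Cybb, the protease Ctss and the actin-binding Aif1 had none. In replicate 2 a Ptprc peak came within 575 bp of a TSS, outside the window.

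The nearest peak of a member lay a median of 2163 bp from a TSS in replicate 1 and 1031 bp in replicate 2, against 0 bp in both replicates for all genes. It was within 2 kb for 15 members in replicate 1 (45.5%, against 75.2% of all genes) and 19 in replicate 2 (57.6%, against 76.2%). The farthest were Timd4 in replicate 1, at 35916 bp, and Itgam in replicate 2, at 20893 bp. Spi1 had its nearest peak close to the edge of the window in both replicates, whereas Ptprc had one there in replicate 2 and none nearer than 3276 bp in replicate 1.

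**Figure D3:**
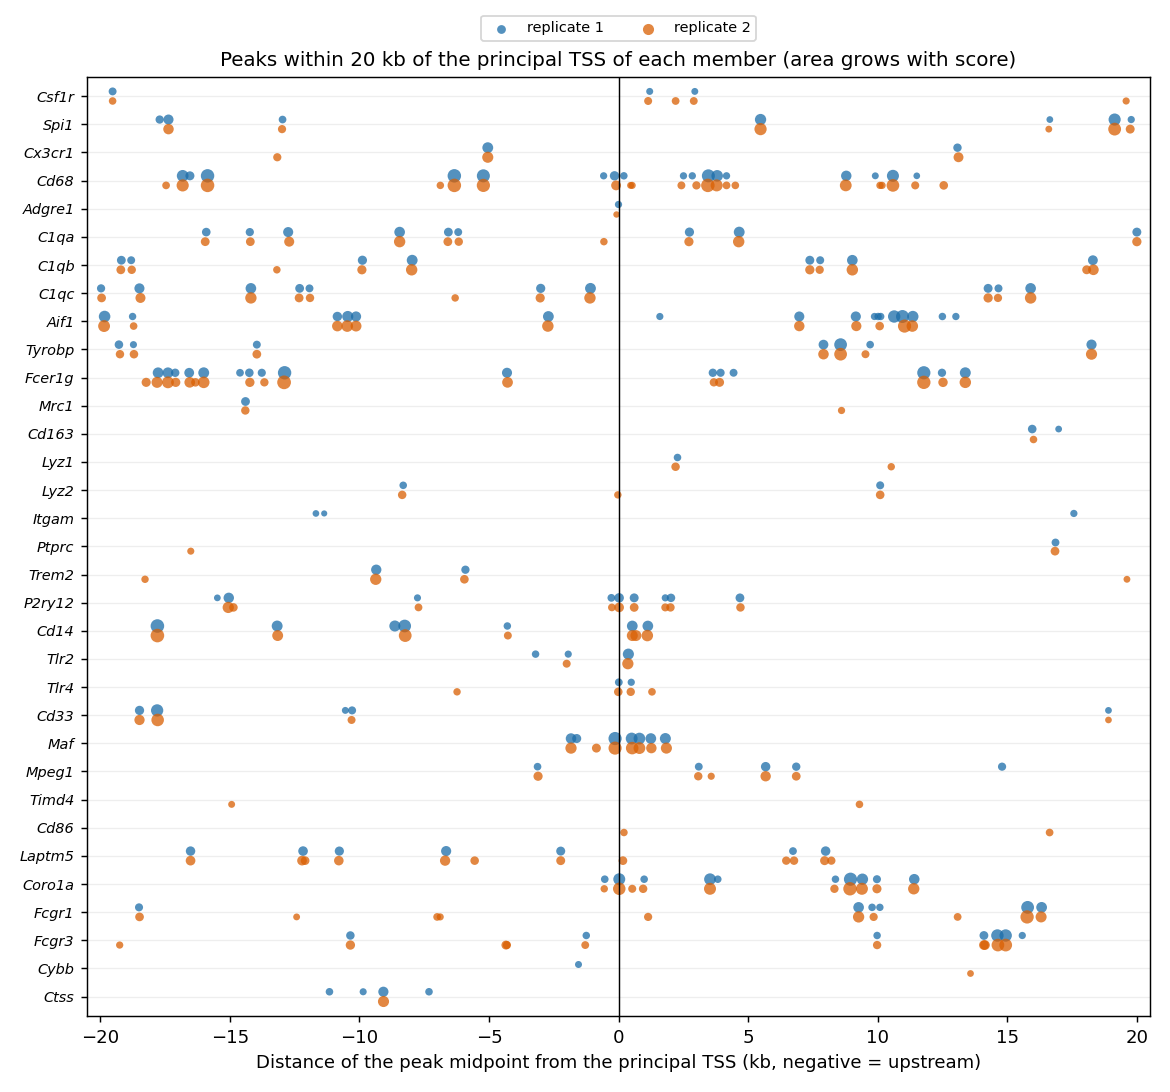
Position of each peak midpoint relative to the principal TSS (horizontal axis, kb, negative upstream, 20 kb to either side) for the 33 members in replicate 1 (upper dots) and replicate 2 (lower dots), with dot area growing with the score. Maf, Coro1a, P2ry12 and Cd68 have dots at the line at 0, whereas C1qb, C1qc and Fcer1g have theirs to either side of it.

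A peak inside the gene body was found in both replicates for 25 of 33 members (75.8%), against 75.5% of all genes. The median number of body peaks was lower, 1 in replicate 1 and 2 in replicate 2 in the members, against 3 in both replicates in all genes. Of the 20 members with no promoter peak in either replicate, 14 had a body peak in both (70.0%), against 20.8% of the 5871 genes with no promoter peak. A body peak in both replicates need not be the same peak, and no body peak of Itgam or Cybb recurred. Without a member's own promoter peaks, 21 of 33 kept one, against 57.2% of all genes. With the better-scoring 50% of peaks in each list the count was 13, against 69.6% of all genes. A body peak among the higher scores was thus rarer in the members than in genes at large. C1qb, C1qc, Tyrobp and Trem2 had no body peak in either replicate. Adgre1 and Aif1 had body peaks in replicate 1 only, and Lyz2 and Timd4 in replicate 2 only.

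The highest body counts were those of Cx3cr1, with 29 in replicate 1 and 28 in replicate 2. The annotated body of Cx3cr1 reaches across other genes: 19 of its 29 peaks in replicate 1 and 16 of its 28 in replicate 2 lay in another coding gene, and 1 in each lay within 20 kb of the principal TSS. Ptprc had 8 and 9 body peaks, P2ry12 7 and 6, Tlr4 6 and 8, and Coro1a 5 and 5. The other genes with body peaks in both replicates had between 1 and 6.

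Csf1r and Spi1 carried peaks inside the gene without one at the promoter. Csf1r, the receptor for the growth factors made by Csf1 and Il34, had 2 peaks in the first intron of its principal transcript in both replicates. The first, chr18:61106976-61107125, scored 26 in replicate 1 and 39 in replicate 2 and lay 1199 bp past the principal TSS. The second, chr18:61108716-61108865, scored 25 and 37 and lay 2939 bp past it. All 4 scores were below the median of their list. The intron next to the myeloid promoter of Csf1r is known to hold an enhancer of the gene; whether either peak lies on it was not tested. Replicate 2 had 3 further body peaks, with scores of 36, 28 and 34, that replicate 1 lacked.

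Spi1 had much stronger peaks. One in intron 2, chr2:91101496-91101645, scored 95 in replicate 1 and 114 in replicate 2. Another in exon 5, chr2:91115156-91115305, scored 112 and 127 and lay 2839 bp from the nearest TSS of Mybpc3, a gene of heart muscle. Both lie outside the Spi1 territory as defined next, which is drawn from the 5′-most start site alone. The midpoint of the intron 2 peak was nevertheless 4791 bp from the nearest Spi1 TSS, and the nearest TSS of another gene, Mybpc3, was 16499 bp away. The midpoint of the exon 5 peak was 18451 bp from the nearest Spi1 TSS, so distance alone does not assign that peak to Spi1. Upstream, chr2:91078656-91078805 scored 72 and 79, at 17365 bp before the principal TSS.

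Distal peaks were counted in a territory, the stretch around a gene in which its own 5′-most start site is the closest of any coding gene. A distal peak was over 1 kb from every coding TSS, and a shared one overlapped a peak of the other replicate. A shared distal peak was found in the territories of 29 of 33 members (87.9%), against 70.1% of all genes. The 4 without were Cd68, Itgam, Cd14 and Coro1a. The median density was 4.55 per 100 kb in the members, against 4.05 in all genes, whose middle 50% reached from 0 to 8.20. The member median lies inside that range. Of the 20 members with no promoter peak in either replicate, 19 had a shared distal peak (95%), against 46.1% of all genes without one. A territory is a rule of distance, and which gene a peak acts on was not tested.

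The territories held 254 shared distal peaks in the coordinates of replicate 1, and 147 of them (57.9%) fell in the large territories of Maf (62), Ptprc (44), Timd4 (22) and Tlr4 (19). By density the order differed. C1qa had 25.1 shared distal peaks per 100 kb, C1qb 24.5, Fcgr1 24.1, Fcer1g 23.7, Laptm5 21.1, Fcgr3 16.8 and C1qc 15.9. C1qb, C1qc and C1qa are neighbours on chromosome 4 with adjoining territories, so their values describe parts of a single stretch. The C1qc value rests on 1 peak in a territory of 6.31 kb. In the Fcgr1 territory, 3 of 22 shared distal peaks lay within 500 bp of the TSS of a noncoding gene, and the snRNA gene Gm24830 was the nearest. Laptm5 held 16, of which 14 formed a run upstream of the gene.

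**Figure D4:**
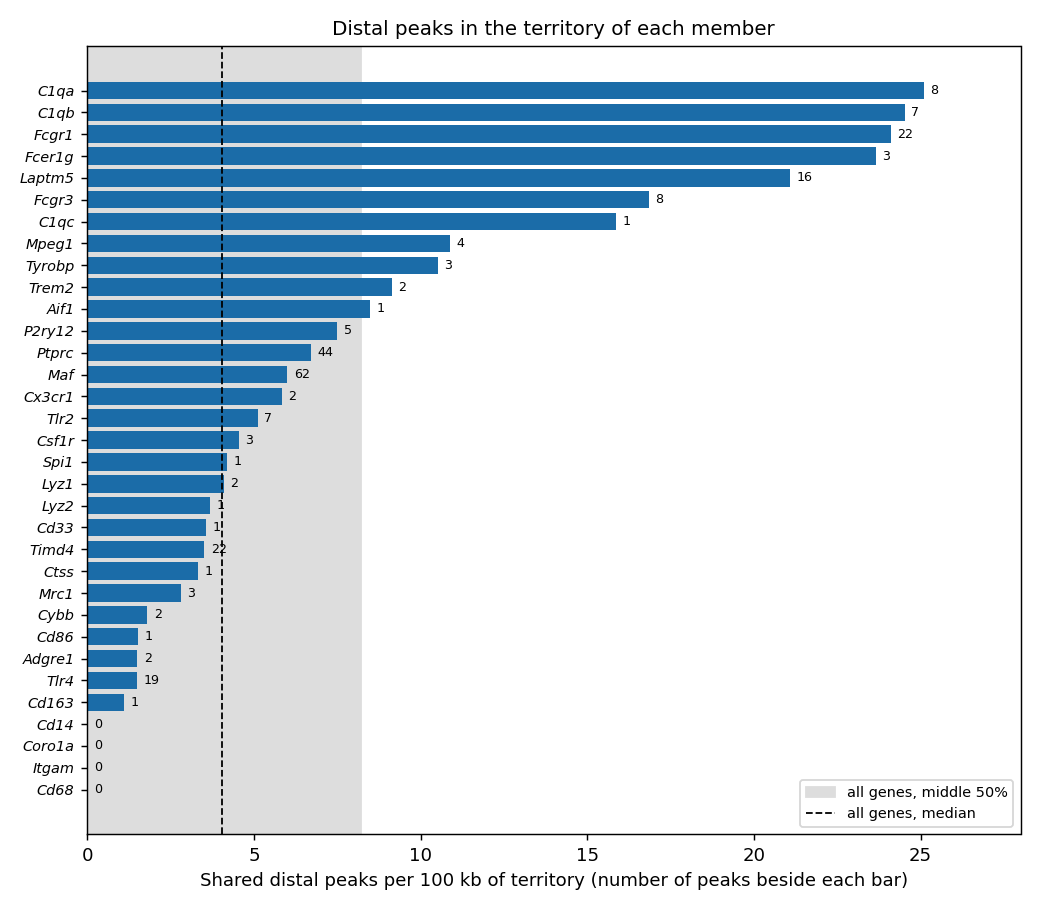
Shared distal peaks per 100 kb of territory (bars) with their number in replicate 1 coordinates beside each bar, for the 33 members; the dashed line is the median of all genes, 4.05, and the grey band their middle 50%, 0 to 8.20. C1qa, C1qb, Fcgr1, Fcer1g and Laptm5 reach beyond 20, and Cd68, Itgam, Cd14 and Coro1a are at 0.

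Of the 254 peaks, 26 (10.2%) lay inside the principal transcript of the member gene. Outside it, 53 (20.9%) lay in the body of another coding gene and 175 (68.9%) in that of no other coding gene. The 175 include peaks in the member's own body but outside its principal transcript, such as the best distal peak of Cd33. Within 5 kb of the principal TSS there were 19 (7.48%), against 9.78% over all genes, and within 20 kb 61 (24.0%), against 28.3%. The share depended on the large territories: within 20 kb lay 3 of 147 peaks of Maf, Ptprc, Timd4 and Tlr4 (2.04%) and 58 of 107 of the other 25 genes (54.2%).

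The best shared distal peaks of the genes for signalling and lineage control spanned a wide range. For each territory this is the peak with the highest mean score percentile over both replicates. Ptprc had the strongest, chr1:137898496-137898645, with scores of 133 and 136, 276735 bp downstream of its principal TSS and at the TSS of the noncoding gene Gm4258. Maf had chr8:115158376-115158525, with 107 and 105, 549343 bp downstream and in the body of Wwox. Tlr4 had chr4:67477516-67477665, with 84 and 99, 650007 bp downstream. In these 3 large territories the best peak was far from the gene.

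The Cx3cr1 peak chr9:120073256-120073405 scored 86 in replicate 1 and 91 in replicate 2, 5048 bp upstream of the principal TSS and 3377 bp from the nearest annotated TSS of this receptor gene for fractalkine. The P2ry12 peak chr3:59277836-59277985 scored 78 and 94, 15040 bp upstream. Trem2 had chr17:48336976-48337125, with scores of 76 and 95, 9350 bp upstream. These 3 microglial receptor genes had their best distal peak upstream and within 20 kb. So did Csf1r, Spi1, C1qc, Aif1, Tyrobp, Fcer1g and Ctss, so this was not particular to them. Tlr2 had chr3:83915896-83916045, with 65 and 83, in the body of Tmem131l. Tyrobp had chr7:30394436-30394585, with 47 and 45, and Cd33 had chr7:43525456-43525605, with 23 and 22, among the lowest of their lists. The best of Spi1 is the upstream peak given above, and that of Csf1r, chr18:61086256-61086405, scored 38 and 33.

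The other 18 genes with a shared distal peak had best mean percentiles from 22.7 (Cd86) to 94.9 (Fcgr3). In order above 80 they were Fcgr3, C1qb, Laptm5, Adgre1, C1qc, Aif1, Mrc1, C1qa, Fcgr1 and Ctss. Below 50 were Cd163, Lyz2, Cybb and Cd86. Aif1, the source of the IBA1 marker of microglia, had its best peak 2710 bp upstream, with scores of 85 and 98. Adgre1, whose promoter peak was the weakest, had one 22840 bp upstream with scores of 92 and 107.

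Peaks of the member territories recurred between the replicates as often as peaks in general. In replicate 1, 274 of 346 were shared (79.2%, Wilson 95% interval 74.6 to 83.1), against 79.5% of all peaks. In replicate 2, 276 of 394 were shared (70.1%, 65.4 to 74.4), against 70.2%. These intervals cover counting error only. Over the 274 shared peaks of replicate 1 the scores correlated across peaks with a Spearman rho of 0.921, with replicate 2 a median of 8 higher. The peaks share libraries and territories, so this is a description. The median score of member territory peaks was 42 in replicate 1 and 47 in replicate 2, against 45 and 50 for all peaks. It was 40 and 45 in the large territories of Ptprc, Maf, Tlr4 and Timd4. In those of the other 29 members it was 45 and 50, the same as for all peaks.

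PU.1 binds DNA around a GGAA core, and its letters were searched on both strands. The longer form GAGGAAGT was in 5 of the 254 shared distal peaks (1.97%), against 1618 of 124517 such peaks of all territories (1.3%). The member share rests on 5 peaks and is near the background. They lie in the territories of Mpeg1 (2), Ptprc (2) and Tyrobp (1). The 4 that no exon touches are printed here on the plus strand of mm10, with the motif in capitals, because they show where a spelled-out PU.1 site met a shared peak. That of Mpeg1 is chr19:12457576-12457725, that of Tyrobp chr7:30394436-30394585, and those of Ptprc are chr1:137839316-137839465 and chr1:138039256-138039405.
Mpeg1: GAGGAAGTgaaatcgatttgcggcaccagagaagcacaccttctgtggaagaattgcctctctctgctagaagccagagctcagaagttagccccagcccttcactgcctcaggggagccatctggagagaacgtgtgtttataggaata
Tyrobp: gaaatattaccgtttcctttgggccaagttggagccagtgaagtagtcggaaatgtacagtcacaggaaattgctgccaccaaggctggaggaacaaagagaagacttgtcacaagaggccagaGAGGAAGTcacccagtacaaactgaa
Ptprc, first: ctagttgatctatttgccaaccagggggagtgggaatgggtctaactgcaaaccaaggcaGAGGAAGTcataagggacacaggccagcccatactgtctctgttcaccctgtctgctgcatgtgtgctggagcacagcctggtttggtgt
Ptprc, second: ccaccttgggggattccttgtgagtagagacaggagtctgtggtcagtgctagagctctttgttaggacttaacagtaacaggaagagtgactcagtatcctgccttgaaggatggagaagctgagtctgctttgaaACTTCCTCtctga

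The scores of these peaks were modest. The Mpeg1 peak, 3128 bp upstream of the gene for a pore-forming protein, scored 34 in replicate 1 and 57 in replicate 2. The Tyrobp peak, 19277 bp upstream, scored 47 and 45. The Ptprc peaks scored 37 and 49, and 40 and 45. The fifth peak lies in exon 2 of Mpeg1 and scored 37 and 45. The shorter form AGGAAGT, which the longer one contains, was in 11 of the 254 (4.33%), against 4.76%. Shares for the other motifs were 5.51% against 5.78% for C/EBP (TTGCNNAA), 9.06% against 11.0% for Runx (TGTGGT), 5.51% against 5.30% for AP-1 (TGANTCA), 3.54% against 5.31% for Gata factors (AGATAA), 6.30% against 4.99% for the TATA box (TATAAA) and 12.6% against 16.1% for the Maf core (TGCTGA).

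The promoter windows of RefSeq (GRCm38.p6, 250 bases before to 50 after the start) gave a different picture for the short form. They matched 24 of the 33 genes with 27 windows. AGGAAGT was in 10 of 27 member windows (37.0%), against 1836 of 20061 windows of all genes (9.15%). GAGGAAGT was in 2, those of C1qc and Ctss (7.41%, against 3.12%), and the C/EBP letters in 6 (22.2%, against 10.1%). The remaining shares were 22.2% against 14.6% for Runx, 11.1% against 7.0% for AP-1, 11.1% against 9.42% for Gata, 11.1% against 12.1% for the TATA box and 29.6% against 17.9% for the Maf core. A match is a description of letters and not a binding site. Most members had CpG-poor promoters, unlike genes at large, and these shares were not compared within a CpG class.

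The windows with AGGAAGT belong to 9 genes and hold 10 distinct sites, 7 of them within 100 bases upstream of a RefSeq start. They are printed on the strand of the gene with 8 bases to either side and the core in capitals, since they are the letters behind the promoter share. Both windows of Ptprc overlap and share a site. The sites are, in mm10, chr4:136886239-136886261 (C1qb, minus strand), chr4:136893095-136893117 (C1qc, minus), chr3:95526776-95526798 (Ctss, plus), chr3:96294016-96294038 (Fcgr1, minus), chr10:117292954-117292976 (Lyz1, minus), chr10:117282358-117282380 (Lyz2, minus), chr2:14229195-14229217 (Mrc1, plus), chr3:59263023-59263045 (P2ry12, minus), chr1:138175404-138175426 and chr1:138175349-138175371 (Ptprc, minus).
C1qb: gacctgaaACTTCCTgagggcag
C1qc: cggcagacACTTCCTcattttgg
Ctss: gaaagttcACTTCCTcattgtgg
Fcgr1: aaatggcaACTTCCTtcctcttt
Lyz1: ctgtaggaACTTCCTgctttacg
Lyz2: cggtaggaACTTCCTgttttgca
Mrc1: ttctccccACTTCCTgcgttttc
P2ry12: taacaagaAGGAAGTtccccagt
Ptprc, first: ttgaattaAGGAAGTaagaagcc
Ptprc, second: tttttttaACTTCCTgcaaagag

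None of the 10 sites lay in a peak of replicate 1, and 1, that of Lyz2, lay in a peak of replicate 2. Of the 9 genes, 1 (P2ry12) had a promoter peak in both replicates, 1 (Lyz2) in replicate 2 only and 7 in neither. Of all 24 genes searched, 5 had a promoter peak in both replicates, and of the 9 not searched, 4 did. Among these 9, the Tlr4 stretch printed above holds the core on its other strand, inside a promoter peak of both replicates. The site of P2ry12 falls between its promoter peaks. Lyz1 and Lyz2 are neighbouring copies with near-identical letters around the site, 100 bases upstream in both, so they are not independent examples. The sites in C1qb, Fcgr1 and P2ry12 lie 53, 61 and 52 bases upstream.

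Genes that act with the members were read the same way. All 20 listed regulators of macrophage fate and function had a promoter peak in both replicates, and only 3 of them were in the low CpG class. Irf8, Runx1 and Cebpa scored 128, 126 and 128 in replicate 1 and 131, 132 and 133 in replicate 2, and Cebpb scored 109 and 118. Most of these factors also serve other embryonic tissues. Of 10 ligands and niche factors 7 had one: Csf1, a growth factor read by Csf1r, scored 104 and 112, Il34, the other ligand of Csf1r, 33 and 28, Cx3cl1, the ligand of Cx3cr1, 115 and 127, and Tgfb1 101 and 108. Csf2 had one in replicate 2 only, and Csf3 and Ccl2 had none. The share was 100% for the regulators and 70.0% for the ligands and niche factors, beside 70.3% of all genes. The ligands and niche factors were thus at the share of genes at large. In the low CpG class it was 3 of 3 regulators and 2 of 5 ligands and niche factors, beside 27.4% of all genes of that class.

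Of 23 further receptors and signalling genes, 15 had a promoter peak in both replicates. The kinase Syk, which acts below Tyrobp and Fcer1g, scored 105 in each replicate, and Plcg2 scored 82 and 93 and Lyn 88 and 97. Inpp5d had a peak in replicate 1 only, Itgb2, the partner chain of Itgam, and Vav1 in replicate 2 only, and Csf2rb in neither. Of 24 further markers of microglia and tissue macrophages 14 had one, among them Tmem119 (124 and 127), Olfml3 (119 and 123) and Sparc (102 and 112). Gpr34, Siglech, Fcrls and P2ry13 had none. The shares, 65.2% of the receptors and signalling genes and 58.3% of these markers, stand beside 70.3% of all genes. Within the low CpG class the counts were 4 of 12 receptors and signalling genes and 8 of 17 of these markers, beside 27.4% of all genes of that class.

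Markers of other blood lineages and of endothelium were read for comparison, beside 70.3% of all genes. A promoter peak in both replicates was found for 2 of 9 granulocyte and mast cell genes (Mpo and Prtn3), 1 of 9 lymphocyte genes (Rag1), 1 of 5 megakaryocyte genes (Itga2b), 3 of 8 erythroid genes (Klf1, Epor and Tal1) and 4 of 8 endothelial genes (Kdr, Tie1, Sox17 and Fli1). The summed level of these genes cannot be given from peak lists. In the low CpG class the counts were 1 of 8, 1 of 8, 1 of 4, 2 of 7 and 1 of 4 in the same order, beside 27.4% of all genes of that class. Elane, Ly6g, Cd3e, Pf4 and the globin genes Hbb-bh1 and Hbb-y had a promoter peak in neither replicate. The globin gene Hba-x, Cd3d and Pecam1 had one in replicate 1 only, and Gata1, S100a8, Cdh5 and Erg in replicate 2 only.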

How the data were processed

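Per the file headers and the text deposited beside them, the authors called peaks and hotspots separately on the filtered mm10 alignments of each replicate. Of the caller and its settings, nothing is stated there. The deposited score of a peak is a whole number of unknown construction, used here only for ranks and filters inside each list and to set replicates side by side. The deposited hotspot value is, by its file format, the −log10 of a q value. Read counts are not given, so depth and precision per peak are unknown.

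From these lists, peaks were joined to GENCODE M21 genes (27 repeated symbols were dropped) and GRCm38 sequence with Python 3.11.15, pandas 2.3.3, numpy 2.4.6, scipy 1.17.1 and pysam 0.24.0. Counting steps were tested on simulated intervals. Repeated peaks may overlap within a list, so counts are of peaks, not of separate elements. With 1 group no test between groups exists, and none was run. All 33 members were named, with every promoter peak, the best shared distal peak by mean percentile for at most 12 territories in full, and up to 4 genes with and 4 without a promoter peak per pathway list. The body peaks of Csf1r and Spi1, the upstream peaks of Aif1 and Adgre1 and the blood markers named were picked after their values were seen. Members, lists and motifs were chosen with earlier results of these data known. Alternatives were the promoter window, the set of start sites, the better-scoring 50% of peaks, hotspots, the overlap, the distance of distal peaks, other motif forms and each replicate alone. A few values under these rules are not reported here.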

Additional observations from a re-analysis of the deposited data

How the results depend on the processing

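Of 38 alternatives over 7 results, 25 stayed within the limits set for a change. No result carried a test, so none had a call to lose, but some turned relative to all genes. With a window of 2500 bp, 15 members had a promoter peak in both replicates, against 75% of all genes; Spi1 was already added at 1000 bp. The start sites of principal transcripts alone, which gave 8 members, were chosen after seeing the data. With the better-scoring 50% of peaks, 13 members had a body peak (39.4%, against 69.6% of all genes, where all peaks gave 75.8% against 75.5%), the density was 2.05 per 100 kb (1.14 in all genes), the shared distal peaks numbered 129, and 86.1% of territory peaks were shared (84.2% of all peaks), where all peaks gave 74.3% and 74.6%. Sharing by at least 75 bp gave 70.4% and 70.1%. The motif AGGAAGT gave 4.33% of distal peaks and 4.76% over all genes, where GAGGAAGT gave 1.97% and 1.3%. Distal peaks more than 2 kb from every TSS gave 3.69 per 100 kb, against 3.32 in all genes. The score percentile of member promoter peaks, 69.1 over both replicates, was 50.8 for the mean over a gene's promoter peaks and 68.3 with a window of 250 bp.

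With each replicate left out in turn, which drops the demand that peaks recur, the ranges were 9 to 13 members with a promoter peak, 27 to 27 with a body peak, 6.81 to 7.59 distal peaks per 100 kb (5.18 to 6.14 in all genes), 323 to 363 distal peaks and a score percentile of 69.8 to 70.2. No paired analysis was possible because there was 1 group. Depth is unknown, so a missing peak is not shown to be closed chromatin.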
